A study of Mus musculus with 3 samples.

Results

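The RNA of 10 genes for protein uptake and lysosomal protein breakdown was followed in the epithelium of the mouse small intestine at 3 stages, the embryonic days E15.5 and E17.5 and day 7 after birth (P7). The genes were chosen by name: Cubn, Lrp2, Amn and Dab2 for uptake, Ctsl, Lgmn, Ctsb and Ctsd for proteolysis, and Lamp1 and Lamp2 for the lysosomal membrane. They are 10 of 22100 gene symbols in the single-cell count tables, and all 10 had counts in each of the 3 libraries. Every library was made from untreated wild-type mice, 1 library per stage, and the labels give neither the strain nor the number or sex of the animals. Without replicate libraries no difference below carries a test, and every interval (95%, exact) covers counting error only. The dissociated epithelium and mesenchyme were mixed and sorted by fluorescence into Epcam-positive cells and cells negative for Epcam, CD31 and CD45, so the share of epithelium in a library follows the sort.

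Epithelial cells were taken as those with at least 3 UMIs (unique molecular identifiers, each marking 1 captured RNA molecule) of Epcam, without the doublets that Scrublet marked. This left 1357 of 8447 cells at E15.5, 1513 of 11598 at E17.5 and 5990 of 8391 at P7. The libraries held 93501273, 94023160 and 116038115 UMIs in that order of stage, with medians of 8503, 6262.5 and 14014 UMIs per cell over all cells. The median share of mitochondrial UMIs in epithelial cells was 3.13%, 4.94% and 7.57%, and the median depth of these cells was 21042, 15845 and 15734 UMIs. Depth was thus highest at E15.5 and nearly equal at E17.5 and P7, and the part of mitochondrial share and depth in the stage differences was not tested. A level in CPM is a gene's UMIs summed over a group of cells, per 1e+06 UMIs of all genes in that group.

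Cells were further divided by marker lists that hold none of the 10 genes. Enterocytes had at least 30 UMIs per 10000 from 10 brush-border and absorptive markers. Among them, lysosome-marker enterocytes had at least 30 UMIs per 10000 from 10 lysosomal hydrolase genes such as Neu1 and Glb1, and lipid-marker enterocytes had under 15 of these and at least 200 from lipid-absorption genes such as Apob, Mttp and Apoa4. The enterocytes in neither kind are called between-kind enterocytes. At P7 there were 1879 lysosome-marker, 796 between-kind and 329 lipid-marker enterocytes, 1582 crypt cells and 925 secretory cells (507 goblet, 183 enteroendocrine and 235 Paneth-marker cells). At E17.5 there were 99 lysosome-marker and 221 between-kind enterocytes, 102 crypt cells and 352 secretory cells, and at E15.5 only between-kind enterocytes (97 cells) and goblet cells (98) reached the minimum of 50 cells beside the unassigned epithelium. The kinds are ranges on a score, and 392 of the P7 enterocytes lay near the lysosome-marker limit of 30, between 0.8 times the limit and the limit divided by 0.8. At E17.5, 94 enterocytes lay in that range, beside the 99 cells of the lysosome-marker kind. There 128 epithelial cells lay near the crypt limit, beside 102 crypt cells. At E15.5, 134 epithelial cells lay near the enterocyte limit, beside 119 enterocytes. The kinds before birth thus rest more on these limits.

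Cubilin (Cubn) is a large peripheral receptor that binds albumin, vitamin B12 with its carrier and many other proteins, and it reaches the apical membrane only with its partner amnionless (Amn). Megalin (Lrp2) is a giant receptor of the same pits, and the adaptor Dab2 links these receptors to clathrin. In suckling rodents, where gastric and pancreatic digestion is immature, specialised enterocytes take up milk protein whole through this machinery and break it down in a large lysosomal vacuole. Cathepsin L (Ctsl) and cathepsin B (Ctsb) are cysteine proteases, cathepsin D (Ctsd) is an aspartic protease, and legumain (Lgmn) cuts after asparagine and also processes the cathepsins. Lamp1 and Lamp2 are the abundant glycoproteins of the lysosomal membrane.

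The uptake genes were detectable in epithelium well before birth. Cubn stood at 22.2 CPM in E15.5 epithelium (interval 20.6 to 23.97), 31.7 CPM at E17.5 (29.5 to 34.0) and 95.1 CPM at P7 (93.2 to 97.1). Its partner Amn stood at 107 CPM at E15.5, 227 CPM at E17.5 and 444 CPM at P7. Over all epithelial cells both were higher at each later stage, and the counting intervals of neighbouring stages did not overlap. The mix of cells moved with stage: enterocytes were 8.77% of epithelial cells at E15.5, 23.5% at E17.5 and 50.2% at P7. In the epithelial cells assigned to no kind (80.6% of epithelium at E15.5 and 46.5% at E17.5) Cubn was lower at E17.5 (14.9 CPM) than at E15.5 (19.5 CPM), a log2 ratio of -0.38 (-0.64 to -0.14), as were Dab2 (-0.66) and Ctsl (-1.30), while Amn was higher (0.96). Dab2 stood at 19.4 CPM at E15.5, 41.0 CPM at E17.5 and 263 CPM at P7, the steepest postnatal difference of the 4 uptake genes (log2 ratio of P7 over E17.5 2.68, interval 2.59 to 2.78). Lrp2 did not share this order: it stood at 8.68 CPM at E15.5, 3.39 CPM at E17.5 and 8.51 CPM at P7, so the E15.5 and P7 levels lay within each other's counting intervals and E17.5 lay below both.

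The proteases differed more between E17.5 and P7 than between E15.5 and E17.5. Ctsl stood at 108 CPM at E15.5, 116 CPM at E17.5 and 2259 CPM at P7, and Lgmn at 13.3 CPM, 24.8 CPM and 589 CPM. Lgmn was thus 1.86-fold higher at E17.5 than at E15.5 already. Over all enterocytes the fold was 3.46 for Lgmn and 1.59 for Ctsl, but the mix of kinds differed. Lysosome-marker cells were 2 of 119 enterocytes at E15.5 and 99 of 356 at E17.5. In enterocytes with a lysosome-marker score under 15 (72 and 109 cells), neither gene was higher at E17.5. Ctsl was there at 137 CPM at E15.5 and 72.0 CPM at E17.5. Lgmn was at 12.0 CPM (20 UMIs) and 6.64 CPM (13 UMIs), with overlapping intervals. The part of the mix in the folds was not tested. Over all epithelial cells Ctsl and Lgmn were over 10-fold higher at P7 than at E17.5. The ratio was 19.5 for Ctsl (log2 4.29, interval 4.23 to 4.34) and 23.7 for Lgmn (log2 4.57, 4.45 to 4.68). Ctsb stood at 251 CPM, 307 CPM and 788 CPM at the 3 stages, and Ctsd at 136 CPM, 128 CPM and 208 CPM. The log2 ratio of P7 over E17.5 was 1.36 for Ctsb and 0.70 for Ctsd, the smallest of the 10. Lamp1 stood at 279 CPM, 308 CPM and 633 CPM and Lamp2 at 95.8 CPM, 98.0 CPM and 224 CPM, which puts both about 2-fold higher at P7.

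Of the 10 genes 3 (Amn, Dab2 and Lgmn) stood 1.5-fold or more above E15.5 at E17.5, beside 10.8% of the 11600 genes with at least 100 UMIs in both groups together. Lrp2 was at least 1.5-fold lower, as were 12.2% of all genes in that comparison. From E17.5 to P7, 10 of 10 were at least 1.5-fold higher, beside 20.7% of 12890 genes. The median log2 ratio of P7 over E17.5 was 1.46 for the 4 uptake genes, 2.82 for the 4 proteases and 1.12 for the 2 membrane genes, beside 0.08 over all genes tested.

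**Figure D1:**
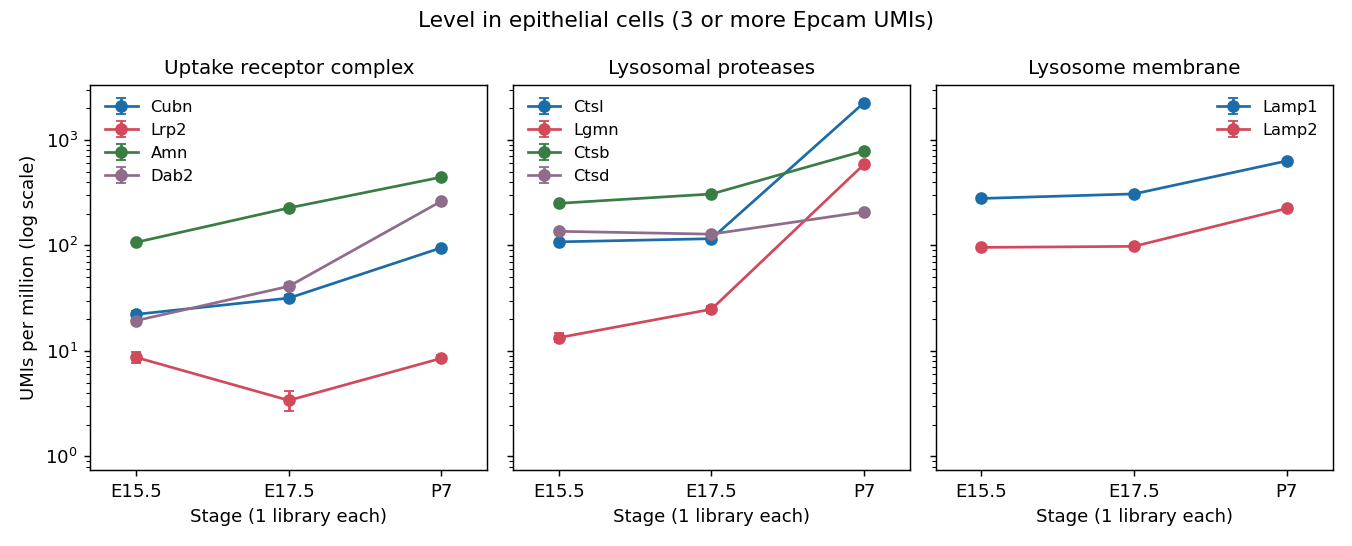
Level of each gene in epithelial cells, in CPM on a log axis, at E15.5, E17.5 and P7 (1 library each), in 3 panels by role. Bars are 95% Poisson intervals and are mostly smaller than the points. Ctsl and Lgmn stay near 116 and 24.8 CPM or below until E17.5 and reach 2259 and 589 CPM at P7, while Lrp2 is lowest at E17.5.

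Some of these genes are not private to epithelium. Cells with no Epcam UMI held Cubn at 0.261 CPM at E15.5, 0.307 CPM at E17.5 and 3.16 CPM at P7, and Amn at 0.541 CPM, 1.29 CPM and 9.84 CPM. At P7 these are 3.32% and 2.21% of the epithelial levels, which is the range of the enterocyte genes Apoa4 (2.83%), Fabp2 (2.62%) and Lct (3.74%) that such cells should lack, and they are read as background. Ctsl in cells with no Epcam UMI stood at 233 CPM at E15.5, 373 CPM at E17.5 and 655 CPM at P7, so before birth it was lower in epithelium and after birth higher in epithelium. Lgmn (36.8 CPM, 53.8 CPM and 90.6 CPM) and Dab2 (36.2 CPM, 41.8 CPM and 72.2 CPM) were also carried by cells without Epcam at all 3 stages. In the epithelial cells themselves the 8 mesenchymal markers summed to 215 CPM, 321 CPM and 113 CPM, against 9527 CPM, 15118 CPM and 27646 CPM in cells with no Epcam UMI. Macrophages are rich in cathepsins and legumain. The 8 immune markers summed to 44.4 CPM, 102 CPM and 72.6 CPM in epithelial cells, against 38.5 CPM, 74.2 CPM and 25.0 CPM in cells with no Epcam UMI. Of the P7 epithelial sum Csf1r gave 67.2 CPM, C1qa stood at 0.0722 CPM, and Ptprc and Tyrobp had no UMI in either population.

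Within enterocytes the genes separated by kind. In lysosome-marker enterocytes at P7 Ctsl reached 6228 CPM (6201 to 6255), against 90.6 CPM in lipid-marker enterocytes of the same library. Lgmn was at 1627 CPM in lysosome-marker and 14.1 CPM in lipid-marker enterocytes, a log2 ratio of 6.85 (6.54 to 7.18) and the largest of the 10. Lgmn in lipid-marker cells was thus below the 21.4 CPM of crypt cells. Lrp2 was at 23.7 CPM in lysosome-marker and 0.344 CPM in lipid-marker enterocytes, with 2 UMIs behind the lipid-marker value (log2 ratio 6.11, 4.25 to 9.16). Cubn was at 237 CPM in lysosome-marker and 15.3 CPM in lipid-marker enterocytes, and Dab2 at 631 CPM and 41.6 CPM, so each of the 2 was about 15-fold higher in the lysosome-marker kind.

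The other 5 genes differed less between the kinds. Amn was at 958 CPM in lysosome-marker and 232 CPM in lipid-marker enterocytes, Ctsb at 1659 CPM and 469 CPM, and Ctsd at 428 CPM and 100 CPM. Lamp1 was at 1308 CPM in lysosome-marker and 359 CPM in lipid-marker enterocytes, and Lamp2 at 443 CPM and 169 CPM, the smallest log2 ratio (1.39). Lipid-marker enterocytes thus had Amn, Ctsb, Ctsd and both Lamp genes at levels of 100 CPM or more while Cubn, Dab2, Ctsl and Lgmn were low. All 10 of 10 were at least 1.5-fold higher in lysosome-marker enterocytes, beside 24.0% of 10119 genes. The kinds were cut on other lysosomal genes, so the division and the proteases belong to the same organelle.

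Set against crypt cells, enterocytes as a whole at P7 were at least 1.5-fold higher for 10 of 10 genes, beside 28.1% of 11697 genes. Cubn was at 167 CPM in enterocytes and 2.34 CPM in crypt cells, below the 3.16 CPM of cells with no Epcam UMI, and Dab2 at 458 CPM and 8.31 CPM. By count the order was reversed, with 60 Cubn UMIs in 1582 crypt cells and 26 in 1597 cells with no Epcam UMI. Their median depths were 14564.5 and 4466 UMIs, and whether Cubn in P7 crypt cells is background was not tested. Amn was at 726 CPM in enterocytes and still at 82.8 CPM in crypt cells, well over the 9.84 CPM of cells with no Epcam UMI. At E17.5 crypt cells had 118 CPM of Amn and 5.82 CPM of Cubn (10 UMIs, 2.79 to 10.7), against 1.29 CPM and 0.307 CPM in cells with no Epcam UMI, so there both were above the level of those cells. Ctsb (1229.9 CPM in enterocytes, 235 CPM in crypt cells) and Lamp1 (987 CPM, 172 CPM) were also counted in P7 crypt cells. Unlike Amn, both lay below their levels in P7 cells with no Epcam UMI (275 CPM and 263 CPM).

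Against secretory cells 10 of 10 were at least 1.5-fold higher in enterocytes, beside 23.9% of 11435 genes. The log2 ratios of enterocytes over secretory cells ran from 1.59 for Ctsd to 4.28 for Lrp2. Among secretory cells, enteroendocrine cells held the most Lgmn (197.5 CPM), Ctsl (385 CPM) and Cubn (26.8 CPM), followed for Ctsl by Paneth-marker cells (277 CPM) and goblet cells (141 CPM). Enterocyte RNA was also present there: the lipid-absorption markers summed to 6550 CPM in enteroendocrine, 4240 CPM in Paneth-marker and 2450 CPM in goblet cells, against 69834 CPM in lysosome-marker enterocytes, and its part in these levels was not tested. At E15.5, goblet cells had 35.6 CPM of Lgmn and 272 CPM summed over 8 immune markers, led by C1qa, against 13.3 CPM and 44.4 CPM in all epithelial cells, and the part of immune RNA in that level was not tested.

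**Figure D2:**
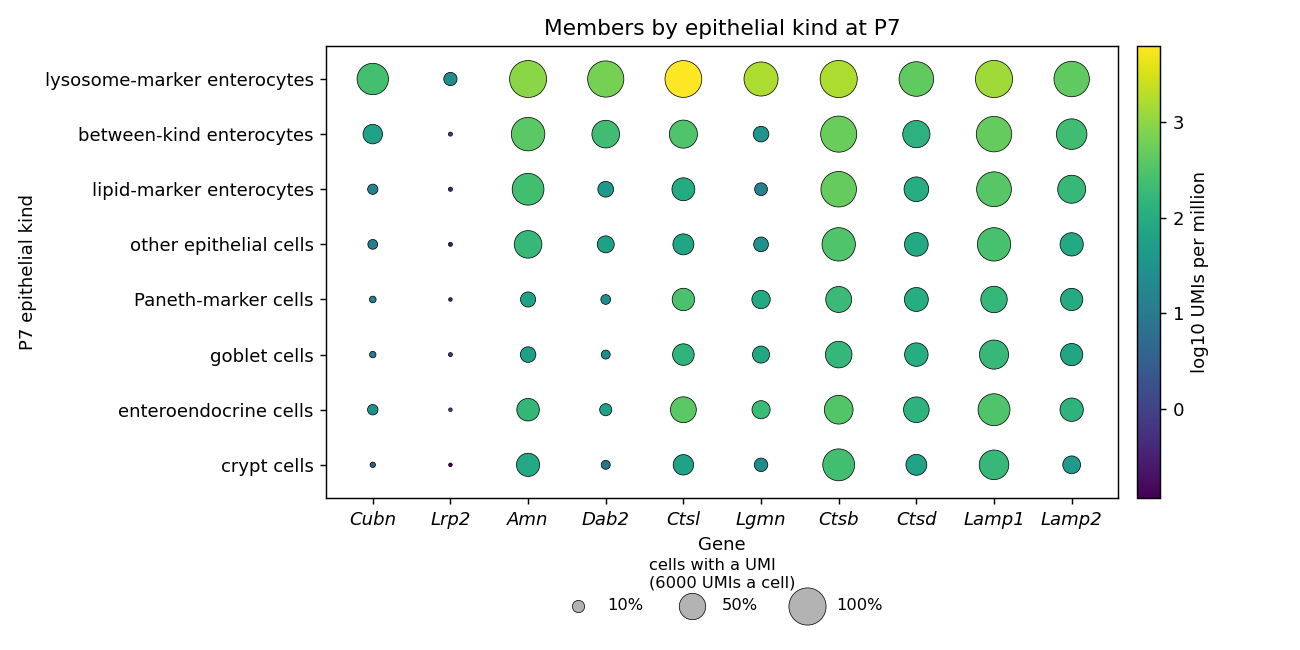
The 10 genes (columns) in 8 epithelial kinds at P7 (rows), with colour for the level as log10 CPM and circle area for the percent of cells with a UMI after each cell was thinned to 6000 UMIs. The top row, lysosome-marker enterocytes, is highest for every gene, from 23.7 CPM for Lrp2 to 6228 CPM for Ctsl.

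Lysosome-marker enterocytes accounted for most of the RNA of each gene at P7. They held 34.7% of the UMIs of all P7 epithelial cells but 95.9% of Lgmn, 95.7% of Ctsl, 96.8% of Lrp2, 86.4% of Cubn and 83.3% of Dab2 UMIs. The share was lowest for Lamp2 (68.7%) and Ctsd (71.4%). Together the 10 genes made up 1.35% of all UMIs of these cells, against 0.149% in lipid-marker enterocytes and 0.0694% in crypt cells. Of the UMIs of the 4 proteases, each one a captured molecule and not scaled for transcript length, Ctsl gave 62.6% in lysosome-marker enterocytes and 13.4% in lipid-marker enterocytes. Ctsb gave 16.7% in lysosome-marker and 69.6% in lipid-marker enterocytes, so the leading protease RNA was not the same in the 2 kinds.

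Along the lysosome-marker score Ctsl and Lgmn climbed later than Cubn, Amn and Dab2. P7 enterocytes were divided into 5 bins of score, under 15, 15 to 30, 30 to 60, 60 to 90 and 90 or more UMIs per 10000, of 578, 547, 725, 580 and 574 cells. Cubn was at 11.8, 85.5, 174.5, 248 and 318.5 CPM in these bins, and Dab2 at 48.5, 281.5, 489, 633 and 846 CPM. Ctsl was at 77.7, 418, 2440, 7304 and 10757 CPM, and Lgmn at 16.6, 40.2, 279, 1579.6 and 3743 CPM. In the 30 to 60 bin Cubn, Amn and Dab2 had thus reached 54.8%, 55.6% and 57.8% of their level in the top bin. Ctsl had reached 22.7% and Lgmn 7.45%, while the proteases Ctsb and Ctsd lay between, at 31.5% and 38.4%. Lrp2 followed the late pattern of Ctsl and Lgmn, at 14.1% of its top level in that bin, unlike its partner receptor Cubn. The bins share 1 library, and their median depth ran from 15644 to 18775 UMIs per cell without following the score.

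**Figure D3:**
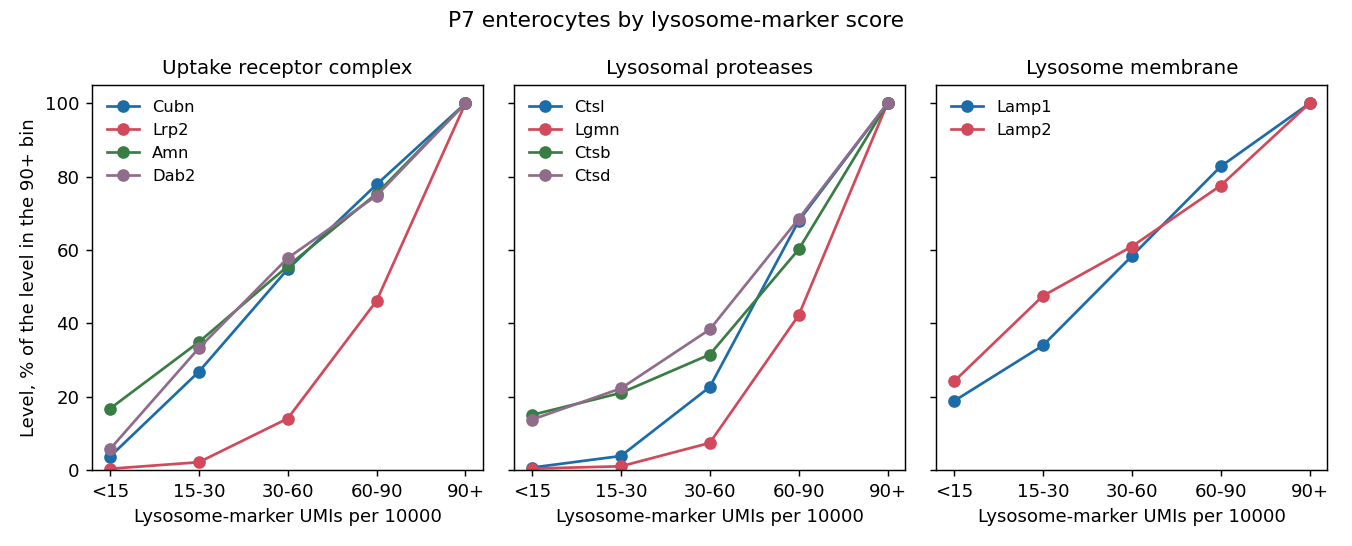
Level of each gene in P7 enterocytes in 5 bins of lysosome-marker UMIs per 10000, as a percent of its level in the bin of 90 or more, in 3 panels by role. Cubn, Amn and Dab2 stand at 54.8% to 57.8% in the middle bin, where Lgmn stands at 7.45%, Lrp2 at 14.1% and Ctsl at 22.7%.

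The score bins also allow P7 and E17.5 enterocytes of like lysosome-marker score to be set side by side. In the 30 to 60 bin, which held 725 cells at P7 and 89 cells at E17.5 (median scores 43.5 and 37.0), Cubn was at 175 CPM at P7 and 184 CPM at E17.5. Its log2 ratio of P7 over E17.5 was -0.07 (-0.25 to 0.11), so the counting interval took in no difference, in contrast to 1.59 over all epithelial cells. Ctsl was at 2440 CPM at P7 and 603 CPM at E17.5 in this bin (log2 ratio 2.02, 1.92 to 2.11), and Lgmn at 279 CPM and 107 CPM (1.39, 1.16 to 1.62). In the 15 to 30 bin, where the median scores lay closer (22.1 at P7 and 21.8 at E17.5), the log2 ratio was 0.74 for Ctsl and 0.65 for Lgmn. Dab2 had ratios of 0.83 in the 30 to 60 bin and 1.55 in the 15 to 30 bin. All 3 were therefore higher at P7 in both bins. In the 15 to 30 bin the ratio was smaller for Ctsl and Lgmn and larger for Dab2. The bins differ in score level as well as in how closely the medians match, and the part of each was not tested.

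Ctsd and Lrp2 ran the other way. In the same bin Ctsd was at 254 CPM at P7 and 414 CPM at E17.5 (log2 ratio -0.70, -0.83 to -0.58), and Lrp2 was at 7.05 CPM and 21.6 CPM (-1.61, -2.20 to -0.998). In the 15 to 30 bin Ctsd was again lower at P7 (148 CPM, against 233 CPM at E17.5), as was Lrp2 (1.09 CPM, against 11.8 CPM). Between-kind enterocytes showed the same order over all 3 stages: Lrp2 was at 27.0 CPM at E15.5 (20.6 to 34.7), 9.40 CPM at E17.5 (6.72 to 12.8) and 0.775 CPM at P7 (0.387 to 1.39). Ctsd in these cells was at 271 CPM, 192 CPM and 128 CPM, and the intervals of neighbouring stages did not overlap for either gene. Cubn there was level, at 61.5 CPM, 58.1 CPM and 62.7 CPM, whereas Dab2 was at 57.5 CPM, 74.0 CPM and 217 CPM.

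Over the lysosome-marker kind as a whole, 6 of 10 genes (Dab2, Ctsl, Lgmn, Ctsb, Lamp1 and Lamp2) were at least 1.5-fold higher at P7 than at E17.5, beside 27.1% of 9912 genes. Ctsl was at 6228 CPM at P7 and 649 CPM at E17.5 in this kind, and Lgmn at 1627 CPM and 126 CPM. Cubn was at 237 CPM at P7 and 192 CPM at E17.5, and Ctsd at 428 CPM and 434 CPM. Lrp2 was at 23.7 CPM and 20.2 CPM, with a log2 ratio of 0.23 whose interval (-0.27 to 0.78) took in no difference. The E17.5 cells of this kind number 99 and nearly all lie under a score of 60, so the mix of scores differs from P7.

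Cells of 1 kind varied more in Ctsl and Lgmn than in Lamp1 and Amn. Over the 1879 lysosome-marker enterocytes of P7 the per-cell level of Ctsl had a 10th percentile of 367 CPM, a median of 3901 CPM and a 90th percentile of 16520.2 CPM, and that of Lgmn 61.2 CPM, 974 CPM and 4714 CPM. Lamp1 was narrower, at 767 CPM, 1299 CPM and 1981 CPM, and Amn at 497 CPM, 932 CPM and 1537.5 CPM. These cells were also compared gene by gene after thinning to 6000 UMIs (1851 cells). Spearman's rho was 0.76 for Lgmn with Ctsb, 0.64 for Ctsl with Lgmn and 0.50 for Ctsl with Ctsb. Ctsd had a rho of 0.52 with Lgmn and 0.51 with Ctsb, but 0.28 with Ctsl. Cubn and Ctsl had a rho of 0.05 and Dab2 and Ctsl one of 0.07. With Lgmn the uptake genes had higher values, 0.21 for Cubn, 0.27 for Lrp2, 0.35 for Dab2 and 0.39 for Amn. The uptake genes and the proteases were thus not 2 separate sets by rho. Cells share a library, and Cubn averaged 1.45 UMIs per thinned cell, so the low values for Cubn are no finding.

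Position along the intestine marked where Ctsl was high. P7 enterocytes were also divided into 449 distal-marker cells (Fabp6, Fgf15 and other ileal genes) and 2331 proximal-marker cells (Gata4, Onecut2, Slc40a1 and Cybrd1). Ctsl was at 1161 CPM in distal-marker and 4716 CPM in proximal-marker enterocytes (log2 ratio -2.02, -2.05 to -1.99), and Lgmn at 357 CPM and 1198 CPM (-1.75). Amn was at 731 CPM in distal-marker and 727 CPM in proximal-marker enterocytes, and Dab2 at 502 CPM and 454 CPM. Cubn was at 153 CPM in distal-marker and 171 CPM in proximal-marker enterocytes (-0.17), and Lrp2 at 8.19 CPM and 16.8 CPM (-1.04). At like lysosome-marker score the ratio of Lrp2 was -0.61 in the 15 to 30 bin (2 and 9 UMIs), 1.17 in the 30 to 60 bin (34 and 43 UMIs) and -0.06 (-0.71 to 0.53) in the 60 to 90 bin (26 and 216 UMIs), so it kept no one direction.

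At like lysosome-marker score the regional difference of Ctsl was present in 3 of 4 bins. In cells with a score under 15 Ctsl was at 74.5 CPM in distal-marker and 79.1 CPM in proximal-marker cells, a log2 ratio of -0.09 whose interval (-0.44 to 0.25) took in no difference. In the 15 to 30 bin the ratio was -0.93 (-1.05 to -0.80). In the 30 to 60 bin Ctsl was at 1066 CPM in 177 distal-marker cells and 2992 CPM in 493 proximal-marker cells (log2 ratio -1.49, -1.54 to -1.44), and in the 60 to 90 bin at 3242 CPM and 7948 CPM (-1.29). Lgmn in the 30 to 60 bin was at 234 CPM in distal-marker and 302 CPM in proximal-marker cells (-0.37), and in the 15 to 30 bin it was higher in the distal-marker cells (68.4 CPM, against 31.1 CPM). Dab2 was higher in distal-marker cells in each of the 4 bins with at least 50 cells on both sides, by log2 ratios of 2.32, 0.96, 0.30 and 0.16 with increasing score. Amn, nearly level over all scores, was also higher in distal-marker cells in each of the 4, by 1.04, 0.53, 0.20 and 0.14. These bins were chosen after the values were seen. When the distal cells were instead called by Fabp6 alone (at least 3 UMIs, against none), the log2 ratio of Ctsl was -1.48 over all enterocytes and -1.76 in the 30 to 60 bin, where that of Lgmn turned to 0.25. Over all enterocytes this division gave Lgmn -0.53, Dab2 0.60, Amn 0.27 and Lrp2 -0.22, and Cubn turned to 0.48. By the first division Cubn had ratios of 0.85 (0.08 to 1.55) under 15 and 0.48 (0.26 to 0.70) in the 15 to 30 bin. In the 30 to 60 and 60 to 90 bins they were -0.03 (-0.17 to 0.11) and 0.14 (-0.04 to 0.31). The direction for Cubn thus depends on how distal cells are called and on the lysosome-marker score.

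**Figure D4:**
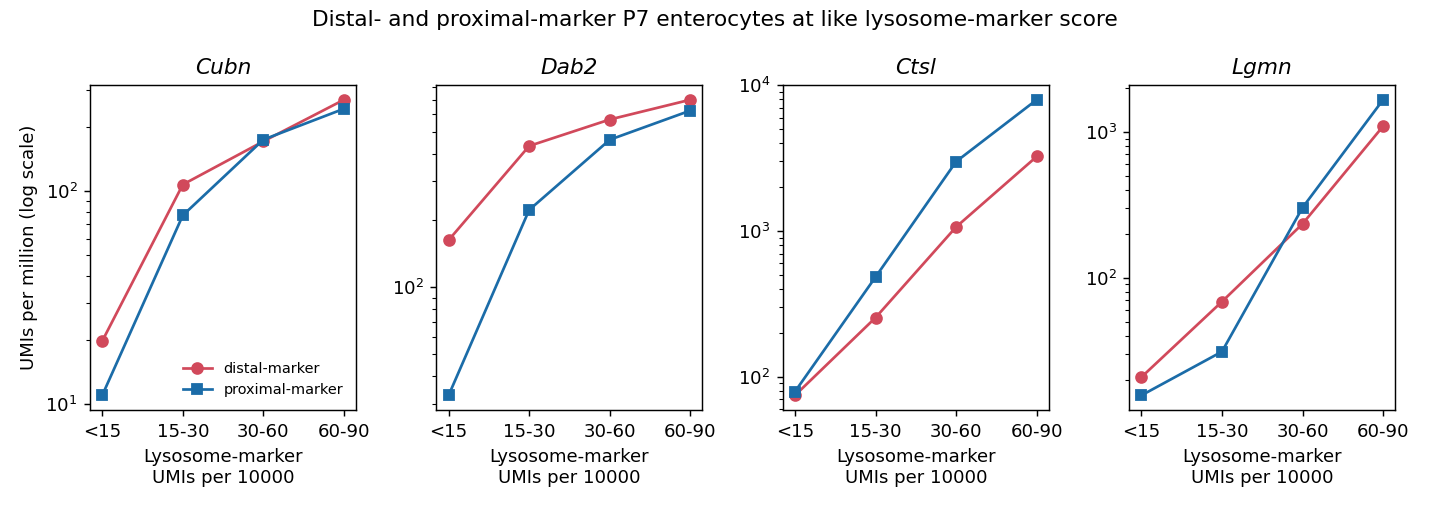
Cubn, Dab2, Ctsl and Lgmn in distal-marker (circles) and proximal-marker (squares) P7 enterocytes, as CPM on log axes, in 4 bins of lysosome-marker UMIs per 10000. In the 60 to 90 bin Ctsl is at 3242 CPM in distal-marker and 7948 CPM in proximal-marker cells, while the Cubn values (269 and 244 CPM) lie close together.

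Lipid markers gave a related picture inside the lysosome-marker kind. The 672 cells with a lipid-marker score under 400 UMIs per 10000 and the 484 cells with 400 to 800 had like lysosome-marker scores (medians 81.3 and 82.4). Ctsl was at 3074 CPM in the first and 7918 CPM in the second, while Cubn was at 294 CPM and 247 CPM and Dab2 at 814 CPM and 656 CPM. The cells low in lipid markers were thus lower in Ctsl and somewhat higher in Cubn and Dab2.

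Detection in the same cell was compared after thinning every cell to 6000 UMIs, which left out 27, 89 and 268 epithelial cells at E15.5, E17.5 and P7. Of E15.5 epithelial cells 6.47% (5.20 to 7.92) had both Cubn and Amn, of those at E17.5 10.1% (8.59 to 11.8) and of those at P7 27.2% (26.0 to 28.4). In cells with no Epcam UMI the pair was found in 0 cells, of 4622, 4065 and 380, which allows shares of up to 0.0649%, 0.0738% and 0.789%. In lysosome-marker enterocytes the pair was found in 70.6% of cells at P7 and in 55.6% at E17.5 (44.7 to 66.0), against 4.28% of lipid-marker enterocytes and 0.516% of crypt cells at P7. Cubn, Lrp2 and Amn together were detected in 2.94% of P7 epithelial cells (2.51 to 3.41) and 8.97% of lysosome-marker enterocytes, limited by Lrp2, which gave a UMI in 11.9% of those cells. Without thinning, Lrp2 gave a UMI in 24.4% of them.

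All 4 proteases were detected in 74.0% of thinned lysosome-marker enterocytes at P7 and in 41.1% at E17.5 (30.8 to 52.0). The share was 1.53% in lipid-marker enterocytes, 1.10% in crypt cells and 4 of 430 goblet cells at P7, but 12.4% in cells with no Epcam UMI, so this set was also found outside epithelium. Of the cells with no Epcam UMI 1720, 5137 and 1217 at E15.5, E17.5 and P7 were too shallow for thinning, so these shares rest on the deeper 4622, 4065 and 380. All genes but Lrp2 were detected in 49.2% of lysosome-marker enterocytes at P7 and in 18 of 90 at E17.5. Among all P7 epithelial cells with a UMI of Cubn, 90.7% also had Dab2, against 24.1% of those without Cubn. Inside the lysosome-marker kind the same shares were 95.4% and 93.3%, where Dab2 was detected in 94.8% of all cells, so a difference could hardly show.

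**Figure D5:**
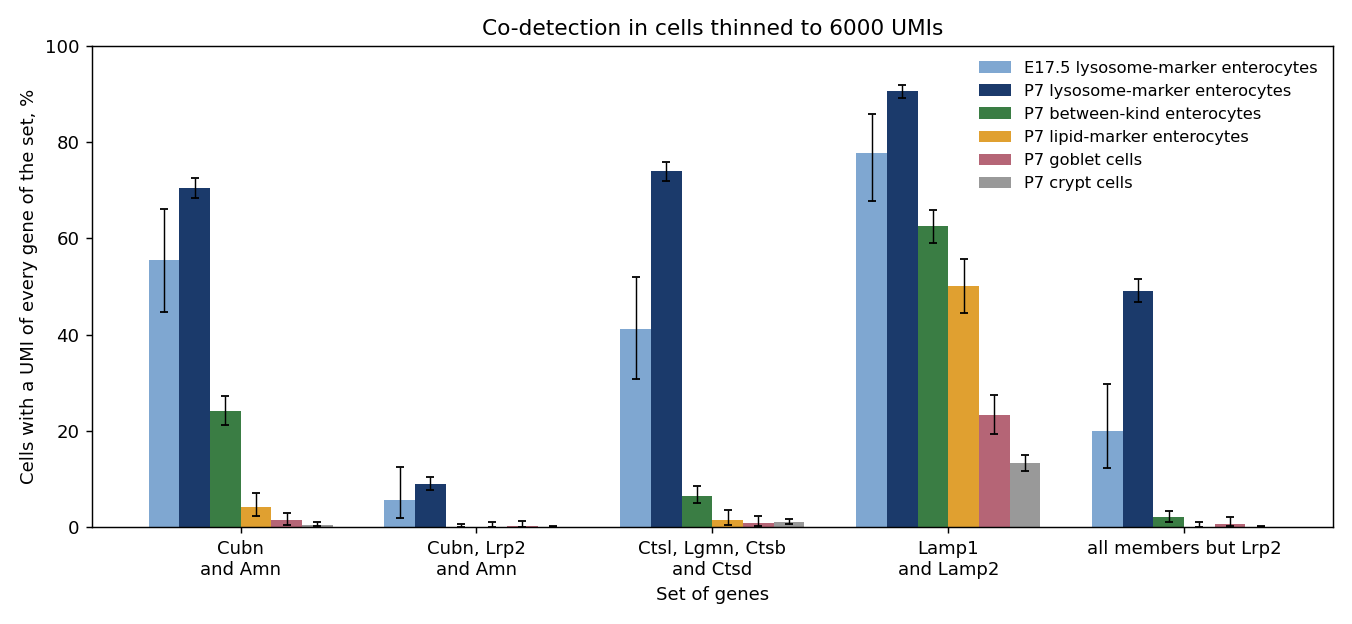
Percent of cells, each thinned to 6000 UMIs, with at least 1 UMI of every gene of a set, for 5 sets of genes and 6 groups of cells. Bars are exact 95% binomial intervals. Lysosome-marker enterocytes are highest in each set, with 70.6% for Cubn and Amn and 74.0% for the 4 proteases at P7.

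Genes of the same pathway, from 9 lists, were examined in the same 2 comparisons. From E17.5 to P7, 6 of 8 tested other cathepsins were at least 1.5-fold higher and 1 was lower (20.7% of all genes were higher and 12.6% lower): cathepsin H (Ctsh) was at 236 CPM at P7 and 19.1 CPM at E17.5, and Ctsf at 2.18 CPM and 4.16 CPM. Of 8 lysosomal exporters 7 were higher, led by Slc46a3 (76.4 CPM at P7, 8.77 CPM at E17.5), with Slc15a4, a peptide and histidine carrier, lowest at 6.45 CPM and 6.42 CPM. The vitamin B12 carrier transcobalamin (Tcn2), in the list of receptor partners, was at 211 CPM at P7 and 47.4 CPM at E17.5, and the receptor Lrp8 at 3.07 CPM and 4.89 CPM; 2 of the 11 tested partners were higher and 2 lower, and the share that was higher is near that of all genes. Of 4 protease inhibitors 2 were higher, with cystatin M (Cst6) at 519 CPM at P7 and 89.7 CPM at E17.5 and cystatin C (Cst3) at 181 CPM and 178 CPM.

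Of 16 genes of the proton pump that acidifies the lysosome, 5 were higher at P7 (median log2 ratio 0.42), beside 20.7% of all genes, from Atp6v0a1 (39.1 CPM at P7, 13.8 CPM at E17.5) to Atp6ap2 (119 CPM, 125 CPM). Between the kinds at P7, 15 of the 16 were at least 1.5-fold higher in lysosome-marker enterocytes (median 1.31), beside 24.0% of all genes, and none was lower, beside 17.2%. Of 13 genes that deliver enzymes to lysosomes 2 were higher at P7, a share below that of all genes, and 9 in the lysosome-marker kind: Gga2, a sorting adaptor, was at 75.4 CPM at P7 and 80.5 CPM at E17.5, but at 165 CPM in lysosome-marker and 25.8 CPM in lipid-marker enterocytes. Cln8, which helps load lysosomal enzymes for transport, was at 33.5 CPM at P7 and 19.4 CPM at E17.5.

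Against the same shares of all genes (20.7% higher at P7 and 24.0% higher in lysosome-marker enterocytes), 6 of 19 endocytic genes were higher at P7 and 9 in lysosome-marker enterocytes, from the apical scaffold Pdzk1 (74.9 CPM at P7, 30.3 CPM at E17.5) to the early endosome tether Eea1 (66.6 CPM, 72.3 CPM). Of 11 other lysosomal membrane genes 6 were higher at P7 and 7 in the lysosome-marker kind, with the cholesterol exporter Npc1 at 24.01 CPM at P7 and 6.87 CPM at E17.5 and its soluble partner Npc2 at 359 CPM and 381 CPM. Of 11 regulators 5 were higher at P7 and 1 lower, and 3 were higher in the lysosome-marker kind and 1 lower. Tfeb, a master transcription factor of lysosomal genes, was at 29.2 CPM at P7 and 13.5 CPM at E17.5, but at 39.3 CPM in lysosome-marker and 39.0 CPM in lipid-marker enterocytes. Hnf4g, an enterocyte transcription factor, was at 42.6 CPM at P7 and 83.6 CPM at E17.5, and at 34.2 CPM in lysosome-marker and 82.4 CPM in lipid-marker enterocytes.

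Over 17 groups of stage by kind with at least 50 cells, the genes whose pattern was most like Cubn among 2958 genes compared were Cndp2 (Pearson's r 0.98), Snx8, Glb1, Nipa2 and Neu1 (0.96), on log2(CPM + 10). Glb1 and Neu1 are markers used to cut the kinds. For Lgmn they were Aph1c (0.92), Galns, Spp2, Rnf128 and Adi1 (0.86). The groups share 3 libraries, so the correlations are descriptions. Among the members, Cubn went with Lamp1 (0.94) and Amn (0.92) and less with Lgmn (0.60), and Lgmn went most with Ctsl (0.88).

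The 10 genes lie at 10 separate loci of the GRCm38 assembly. Cubn (ENSMUSG00000026726.10) spans chr2:13276338-13491813 and Lrp2 (ENSMUSG00000027070.14) chr2:69424340-69586065, both on the minus strand. Amn (ENSMUSG00000021278.7) spans chr12:111271095-111276426 on the plus strand, Lgmn (ENSMUSG00000021190.14) chr12:102394084-102439813 on the minus strand and Dab2 (ENSMUSG00000022150.16) chr15:6299788-6440712 on the plus strand. Ctsl (ENSMUSG00000021477.9) spans chr13:64359337-64370890 and Ctsd (ENSMUSG00000007891.16) chr7:142375911-142388038, both on the minus strand, and Ctsb (ENSMUSG00000021939.8) chr14:63122462-63145923 on the plus strand. Lamp1 (ENSMUSG00000031447.7) spans chr8:13159161-13175338 on the plus strand and Lamp2 (ENSMUSG00000016534.15) chrX:38401357-38456454 on the minus strand. Exons of Ctsl overlap the antisense gene Gm47123 by 1742 bases, exons of Ctsb overlap Fdft1 by 774 and exons of Lamp1 overlap Grtp1 by 249, each on the opposite strand, Ctsd shares 808 bases of exon with Gm49369 and Ctsl 395 with Gm49230 on the same strand, and whether the counting used strand is not given in the sources used here. At P7 Gm47123 had 93 UMIs in epithelial cells beside 218901 of Ctsl, Fdft1 had 3427 beside 76328 of Ctsb, and Grtp1 had 6985 beside 61296 of Lamp1. Gm49369 and Gm49230 are not among the gene symbols that were counted, so no counts of them could be compared.

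Promoters are shown because these genes were high in the same cells and because lysosomal genes are known to carry E-box elements that TFEB and its relatives bind. RefSeq promoter windows (GRCm38.p6, 250 bases before to 50 after the start) were found for 9 of the 10 genes, 11 windows in all, and searched for the palindrome CACGTG, which reads the same on both strands. It occurred in windows of 5 genes: Lamp1 (4 times), Ctsd (2), Amn, Ctsl and 1 of 2 windows of Lgmn. Of all 32851 windows 7.15% hold it, 0.594% hold it at least 2 times and 0.0883% at least 3 times. The 4 copies in Lamp1 lie with their centres 58, 42, 25 and 12 bases before the start, the copy in Amn 23 bases before it, that in Lgmn 46 bases before it and the nearer copy in Ctsd 95 bases before it. The windows of Cubn, Lrp2, Dab2 and Lamp2 hold none. Capitals mark the palindrome, and the windows are chr8:13158911-13159210 (plus strand), chr7:142387778-142388077 (minus), chr12:111270846-111271145 (plus), chr13:64370471-64370770 (minus) and, for contrast with none, chr2:13491827-13492126 (minus).
Lamp1: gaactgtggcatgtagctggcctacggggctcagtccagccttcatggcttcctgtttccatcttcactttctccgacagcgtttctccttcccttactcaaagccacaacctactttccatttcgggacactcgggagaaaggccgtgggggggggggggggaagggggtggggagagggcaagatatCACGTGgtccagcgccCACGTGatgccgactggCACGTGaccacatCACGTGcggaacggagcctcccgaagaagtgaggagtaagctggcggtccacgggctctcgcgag
Ctsd: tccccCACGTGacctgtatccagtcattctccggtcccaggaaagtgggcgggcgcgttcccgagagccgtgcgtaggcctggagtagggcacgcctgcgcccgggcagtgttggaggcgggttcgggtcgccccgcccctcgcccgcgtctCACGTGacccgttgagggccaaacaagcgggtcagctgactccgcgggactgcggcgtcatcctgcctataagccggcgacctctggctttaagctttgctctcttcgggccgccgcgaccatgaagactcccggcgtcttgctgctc
Amn: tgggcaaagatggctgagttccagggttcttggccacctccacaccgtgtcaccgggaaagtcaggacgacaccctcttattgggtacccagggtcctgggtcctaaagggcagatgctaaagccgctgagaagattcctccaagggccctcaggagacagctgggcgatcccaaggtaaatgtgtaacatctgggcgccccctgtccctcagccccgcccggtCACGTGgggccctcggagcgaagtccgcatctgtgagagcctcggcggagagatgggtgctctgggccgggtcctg
Ctsl: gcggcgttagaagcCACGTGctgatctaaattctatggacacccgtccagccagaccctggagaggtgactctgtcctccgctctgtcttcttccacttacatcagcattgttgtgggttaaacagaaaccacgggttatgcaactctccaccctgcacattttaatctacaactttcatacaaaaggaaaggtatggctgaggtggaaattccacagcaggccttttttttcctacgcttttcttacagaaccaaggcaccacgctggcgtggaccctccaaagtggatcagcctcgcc
Cubn: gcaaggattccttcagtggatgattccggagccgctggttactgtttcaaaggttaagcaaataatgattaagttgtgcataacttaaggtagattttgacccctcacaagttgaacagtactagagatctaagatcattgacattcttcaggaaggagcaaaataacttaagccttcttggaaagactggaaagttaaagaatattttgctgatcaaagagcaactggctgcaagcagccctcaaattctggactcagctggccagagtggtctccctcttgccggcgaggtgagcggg
The 5 genes with a copy had log2 ratios of lysosome-marker over lipid-marker enterocytes of 1.86 (Lamp1), 2.09 (Ctsd), 2.05 (Amn), 6.10 (Ctsl) and 6.85 (Lgmn). The 4 with none had 3.95 (Cubn), 6.11 (Lrp2), 3.92 (Dab2) and 1.39 (Lamp2), so the ranges overlap. A match is a description of these letters and not a bound site.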

How the data were processed

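Per the labels, cells of the whole small intestine were sorted, and Chromium Single Cell 3' v2 libraries were sequenced; per the submitters' processing notes Cell Ranger 7.2.0 and the mm10 (GRCm38) build were used. The deposited tables hold raw UMI counts per gene and cell, not normalized, as whole numbers. The 3 deposited barcode lists are the same list of 8447 names and match only the E15.5 table in number, so cells were taken by column and shared barcodes between libraries could not be counted.

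Doublets were called with Scrublet in scanpy 1.11.5 (expected share 6%) and left out. Counts were summed over cells and scaled to CPM; ratios carry exact conditional binomial intervals, sums exact Poisson and shares Clopper-Pearson intervals (95%), which cover counting error only. As stages have no replicate libraries, nothing was tested and no p-value is given. A fold of 1.5 among genes with at least 100 UMIs in both groups together gives the background share. Shares of cells used thinning to 6000 UMIs per cell. Groups under 50 cells were not reported. A count of 0 allows up to 3 counts.

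Cells had secretory markers at 50 or more UMIs per 10000 (goblet, enteroendocrine or Paneth list), enterocyte markers at 30 or more, or crypt markers at 10 or more. The marker limits and the score bins were chosen after the marker scores were seen; no member is a marker. The members and lists were chosen with earlier results of these data known. Named genes are the members, the highest and lowest gene of each pathway list by P7 over E17.5, and the 5 genes most like Cubn and like Lgmn. Lists of 5 distal and 4 proximal markers divided the regions by their larger sum, with at least 3 UMIs. Positions are from GENCODE vM21 on GRCm38. Python 3.11.15, numpy 2.4.6, scipy 1.17.1 and matplotlib 3.10.9 were used. The interval and thinning code was checked on simulated counts.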

Additional observations from a re-analysis of the deposited data

Results flagged for a closer look

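Cubn, Amn and Lamp2 were singled out because P7 over E17.5 ran up in some kinds of epithelial cell and down in crypt cells. The log2 ratio of Cubn was 0.30 in lysosome-marker enterocytes, 1.498 in secretory cells and -1.31 in crypt cells. In crypt cells Cubn was at 2.34 CPM at P7 and 5.82 CPM at E17.5. Cells with no Epcam UMI, which were shallower, held 3.16 CPM at P7, and whether the P7 crypt value is background was not tested. The log2 ratio of Amn was 0.55 in lysosome-marker enterocytes, 0.34 in secretory cells and -0.51 in crypt cells, and that of Lamp2 was 0.74, 0.49 and -0.46 in the same order. The difference between kinds was not tested, since each stage is 1 library. The E17.5 crypt group holds 102 cells.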

How the results depend on the processing

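The count of genes at least 1.5-fold higher kept within 1.5 times its value for all 5 comparisons with an Epcam limit of 1 or 5 UMIs, with doublets kept, with scaling by the median gene ratio and with a fold of 2, and likewise with stricter marker limits for the comparisons between kinds and with cells weighted equally, cells rich in mesenchymal or immune markers left out or genes of low count left out for those between stages. Scaling by the median gene moved the E17.5 over E15.5 count to 4, since the median of genes counted in both was -0.12. When the level in cells with no Epcam UMI was subtracted, 6 genes stayed above it at both stages of each comparison. Of these, 1 was higher at E17.5 than at E15.5 and 6 at P7 than at E17.5. Dab2, Ctsl, Lgmn and Lamp2 were left out because their E17.5 epithelial levels lay below it. Ctsl was at 116 CPM against 373 CPM, Lgmn at 24.8 against 53.8, Dab2 at 41.0 against 41.8 and Lamp2 at 98.0 against 125. This subtraction therefore says nothing about the stage ratios of Dab2, Ctsl, Lgmn and Lamp2. When enterocytes were divided into distal over proximal in place of lysosome-marker over lipid-marker, 0 of 10 were higher, and the log2 ratios turned to -0.17 for Cubn, -1.04 for Lrp2, -2.02 for Ctsl, -1.75 for Lgmn, -0.64 for Ctsb, -0.31 for Ctsd, -0.26 for Lamp1 and -0.27 for Lamp2. That division asks about region and not kind. For the distal over proximal ratios, alternatives chosen after seeing the data turned Lrp2 to 1.17 in the 30 to 60 bin and to 0.28 there with Fabp6 alone, which also turned Lgmn to 0.25. Over all alternatives, 196 single-gene ratios stayed inside the counting interval of the reported value, 115 left it, and 11 of at least 1.5-fold changed sign. Co-detection of Cubn, Lrp2 and Amn was 1.10% of cells thinned to 3000 UMIs and 7.71% unthinned, beside 2.94% at 6000, so it depends on depth. Lrp2, with 84 UMIs in E17.5 epithelial cells, is the gene that depth limits most. No paired analysis was possible because each stage has 1 library.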

Other observations

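Csf1r, on the list of immune markers, had a level of its own in the cells rich in these genes, chosen for mention after its values were seen. It was the highest of the 8 immune markers in lysosome-marker enterocytes, at 181 CPM at P7 and 119 CPM at E17.5, against 10.5 CPM in P7 lipid-marker enterocytes. In P7 epithelial cells as a whole it stood at 67.2 CPM, against 1.82 CPM in cells with no Epcam UMI, while Ptprc and Tyrobp had no UMI in either group.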
